A study of Mus musculus with 6 samples.

Results

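DNA methylation was examined at 8 genes that carry Hedgehog signalling: the ligand Shh, its receptor Ptch1, the transducer Smo, the ligand-binding inhibitor Hhip, the cytoplasmic inhibitor Sufu and the zinc-finger transcription factors Gli1, Gli2 and Gli3. The members were all CpG cytosines of the deposited table that lay between 1 kb upstream of the gene start and the gene end in GENCODE M21, which gave 860 of 890041 sites and 8 of the 25544 genes that held a site. The samples were dentate gyri of female C57BL/6JRj mice aged 4.5 months, 3 from standard cages (STD) and 3 from an enriched enclosure (ENR) with tunnels and toys that were rearranged regularly. No genetic modification or drug was named for either group. The study's methods describe one enclosure shared by the enriched animals, so that enclosure and housing cannot be told apart. The assay was RRBS (reduced representation bisulfite sequencing): the enzyme MspI cuts genomic DNA at CCGG and bisulfite converts unmethylated cytosine, so that each site has a percentage of reads that stayed methylated. The table gave percentages without read numbers. The depth behind each value was thus unknown beyond the study's minimum of 10 reads, and no counting interval is given.

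In Hedgehog signalling, free PTCH1 protein holds SMO inactive, and binding of a Hedgehog ligand releases it. Active SMO lets the GLI proteins escape SUFU and act as activators, while GLI3 in the absence of ligand is mainly processed to a repressor. Ptch1, Hhip and Gli1 are themselves standard targets of the pathway. In the adult dentate gyrus the pathway is known for maintaining neural stem cells of the subgranular zone. The bulk tissue mixes these rare cells with many granule neurons and with glia, and a change in a cell type's share cannot be told apart from a change in methylation within it. Promoters of the neuronal markers Rbfox3, Snap25, Syt1 and Prox1, averaged together, were methylated at 1.73 to 2.40% in the 6 libraries. The astrocyte marker promoters lay at 25.1 to 29.8% in STD and 21.2 to 25.4% in ENR mice, with overlapping groups. The labels number the replicates but do not match mice in pairs. Within same-numbered pairs, the ENR minus STD difference was -3.87, -5.06 and -4.35 points for the astrocyte markers. For the neuronal markers it was -0.262, -0.420 and -0.238 points, so that both were lower in all 3 pairs. The part of these values in the members' differences was not tested. Promoter means of the measured oligodendrocyte markers (2 of 5) and endothelial markers (1 of 3) also overlapped between the groups, and none of the 4 microglial markers was measured. Replicate 3 had the lowest mean over all sites in both groups, at 22.5% in STD and 21.3% in ENR against 23.9 to 24.3% in the other 4 libraries, and its part in the differences was not tested beyond the centred and left-out values given with the limits.

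The sites fell unevenly over the genes. Shh on chromosome 5 (28456815 to 28467256, minus strand, GRCm38) had 229 sites, 13 in its promoter and 216 in its body. A promoter here means all sites within 1 kb of any annotated transcript start of the gene, and the body is the rest of the window. Ptch1 (chromosome 13, 63508328 to 63573598, minus strand) had 159 promoter and 47 body sites. Smo (chromosome 6, 29735503 to 29761365, plus strand) had 29 and 10, and Gli1 (chromosome 10, 127329882 to 127341974, minus strand) had 32 and 38. Gli2 (chromosome 1, 118834132 to 119053619, minus strand) had 60 and 80, Gli3 (chromosome 13, 15463235 to 15730026, plus strand) had 101 and 22, and Sufu (chromosome 19, 46396896 to 46488804, plus strand) had 20 and 21. Hhip (chromosome 8, 79965851 to 80058006, minus strand) had 12 body sites and no promoter site. Site density ran from 20.01 per kb of the Shh window to 0.129 per kb of that of Hhip. All 860 sites stood at a CpG of the GRCm38 reference. Of these sites, 414 (48.1%) were in promoters, and 280 (32.6%) read 0% in all 6 libraries, against 29.8% of all sites in the table.

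The sequences of the stretches on which the description turns are shown with each measured CpG in capitals and all other bases in lower case. The Smo and Gli2 stretches from RefSeq (build GRCm38.p6) are the 250 bases before the RefSeq start and show how CpGs of an almost unmethylated promoter lie beside unmeasured ones. Of the 8 genes, 6 matched the RefSeq promoter table, and Shh and Gli1 did not.

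Smo promoter, chr6:29735247-29735496, plus strand: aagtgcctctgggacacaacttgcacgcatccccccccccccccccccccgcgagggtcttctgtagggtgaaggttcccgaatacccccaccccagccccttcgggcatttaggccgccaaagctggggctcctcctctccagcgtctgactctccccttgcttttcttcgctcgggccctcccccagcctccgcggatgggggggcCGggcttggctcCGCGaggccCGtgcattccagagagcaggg

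Gli2 promoter, chr1:119053620-119053869, minus strand: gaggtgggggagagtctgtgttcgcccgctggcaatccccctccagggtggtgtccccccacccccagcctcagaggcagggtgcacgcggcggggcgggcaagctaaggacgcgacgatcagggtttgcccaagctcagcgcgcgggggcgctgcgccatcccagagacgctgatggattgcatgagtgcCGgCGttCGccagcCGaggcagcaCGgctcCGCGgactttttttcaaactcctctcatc

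The next stretches are clusters inside genes, in which neighbouring measured sites were at most 500 bp apart, all read 5′ to 3′ on the plus strand of GRCm38. The Smo and Gli3 clusters were the ones of at least 3 sites in which STD and ENR mice did not overlap, the Gli1 clusters are a stretch of low methylation and its highly methylated neighbour, and the Ptch1 cluster was the most highly methylated.

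Smo coding exon, chr6:29753474-29753652: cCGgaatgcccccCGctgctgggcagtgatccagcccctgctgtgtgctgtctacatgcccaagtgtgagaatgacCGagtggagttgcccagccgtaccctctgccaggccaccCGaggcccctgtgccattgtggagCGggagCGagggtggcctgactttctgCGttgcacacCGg

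Gli3 intron, chr13:15704840-15705130: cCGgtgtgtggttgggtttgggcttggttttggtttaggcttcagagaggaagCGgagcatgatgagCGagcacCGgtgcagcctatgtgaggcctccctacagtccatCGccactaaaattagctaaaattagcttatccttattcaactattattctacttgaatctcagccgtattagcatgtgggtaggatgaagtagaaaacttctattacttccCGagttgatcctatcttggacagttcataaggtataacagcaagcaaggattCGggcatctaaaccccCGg

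Gli1 exon and intron, chr10:127332390-127332652: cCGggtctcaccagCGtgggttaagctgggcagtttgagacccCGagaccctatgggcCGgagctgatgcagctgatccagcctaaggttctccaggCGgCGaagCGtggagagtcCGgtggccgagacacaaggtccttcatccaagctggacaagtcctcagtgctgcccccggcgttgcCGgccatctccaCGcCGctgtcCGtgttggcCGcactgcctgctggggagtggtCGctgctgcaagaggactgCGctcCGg

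Gli1 coding exon, chr10:127333662-127333711: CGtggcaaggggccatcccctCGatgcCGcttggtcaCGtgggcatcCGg

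Ptch1 exon and intron, chr13:63532748-63532912: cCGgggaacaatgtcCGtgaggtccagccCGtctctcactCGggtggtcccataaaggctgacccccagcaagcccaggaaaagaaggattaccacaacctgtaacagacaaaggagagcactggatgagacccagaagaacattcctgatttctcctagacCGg

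All 5 printed clusters end in CCGG, the letters at which MspI cuts. CCGG occurred in 5 of the 6 members' 300-base promoters in the table and in 52.8% of all 32851 promoters. The Sufu promoter was the one without it, and none of its 12 CpGs was measured, while the Hhip promoter held 5 CCGG and 30 CpGs and none was measured. The letters TGGGTGGTC, the GLI binding consensus, were searched on both strands (reverse GACCACCCA). They were found in 0 of the 6 promoters and in 0.253% of all promoters of this length. An exact match is so rare that its absence from 6 promoters says little about GLI binding. Gli1 was not among the 6, and the Ptch1 stretch (63565686 to 63565985) lay inside the gene and not at its start.

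Promoters of all measured members were nearly unmethylated in every mouse. The mean was lowest for Smo, at 1.18, 1.17 and 0.731% in the STD mice and 1.33, 1.01 and 1.03% in the ENR mice. It was highest for Sufu, at 2.90, 3.01 and 4.90% in STD and 3.85, 3.09 and 5.57% in ENR mice. The median promoter of protein-coding genes with at least 5 promoter sites was at 1.96%. The Ptch1 promoter, the gene with most transcript starts (10), had a mean of 2.55% in the STD group (SD 0.427 over 3 mice) and of 2.30% in the ENR group (SD 0.210 over 3 mice). Its low mean covered starts that differed: 106 sites 8.38 kb into the gene lay at 1.17% and 43 sites 0.584 kb from the gene start at 1.68%, but 5 sites at a start 28.6 kb into the gene lay at 34.3%. The Sufu promoter likewise held 11 sites at 1.23% near the gene start and 8 at 8.02% beside a start 86.4 kb downstream.

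Bodies, in contrast, ranged from almost unmethylated to about as methylated as the median gene. In order of their mean over the 6 mice, the bodies were Shh (3.91%), Gli2 (17.9%), Hhip (19.1%), Sufu (27.0%), Ptch1 (29.8%), Gli1 (35.0%), Smo (37.0%) and Gli3 (52.0%), beside a median of 50.6% for protein-coding genes. The SD over the 6 mice was 0.538 points for Shh and between 1.68 and 5.13 points for the others, so that Shh and Gli3 stood clear of their neighbours while Gli2 and Hhip, Sufu and Ptch1, and Gli1 and Smo differed by less than that spread. Body methylation was above promoter methylation in 6 of 6 mice for Ptch1, Smo, Gli1, Gli2, Gli3 and Sufu, by 14.4 points in Gli2 to 50.4 points in Gli3 (exact two-sided sign-flip permutation test, p = 0.0312 each, the smallest that 6 mice allow). Among all 6866 genes with both measures, 84.7% had the body above the promoter in all 6. In limma fitted to this difference over those genes, their Benjamini-Hochberg adjusted p-values were 7.32e-08 to 6.08e-06. Such a call with the body higher was made for 85.9% of all genes, so that the direction was the usual one. Shh was the exception, with a body minus promoter difference of 1.29 points (limma SE 0.709, adjusted p = 0.117), positive in 5 of 6 mice and -0.807 in ENR mouse 1 (exact p = 0.0625). Sites of intermediate level in the bodies, between 20 and 80%, numbered 17 of 38 in Gli1, 16 of 47 in Ptch1, 15 of 80 in Gli2, 13 of 22 in Gli3, 10 of 21 in Sufu, 5 of 10 in Smo, 4 of 12 in Hhip and 5 of 216 in Shh.

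**Figure D1:**
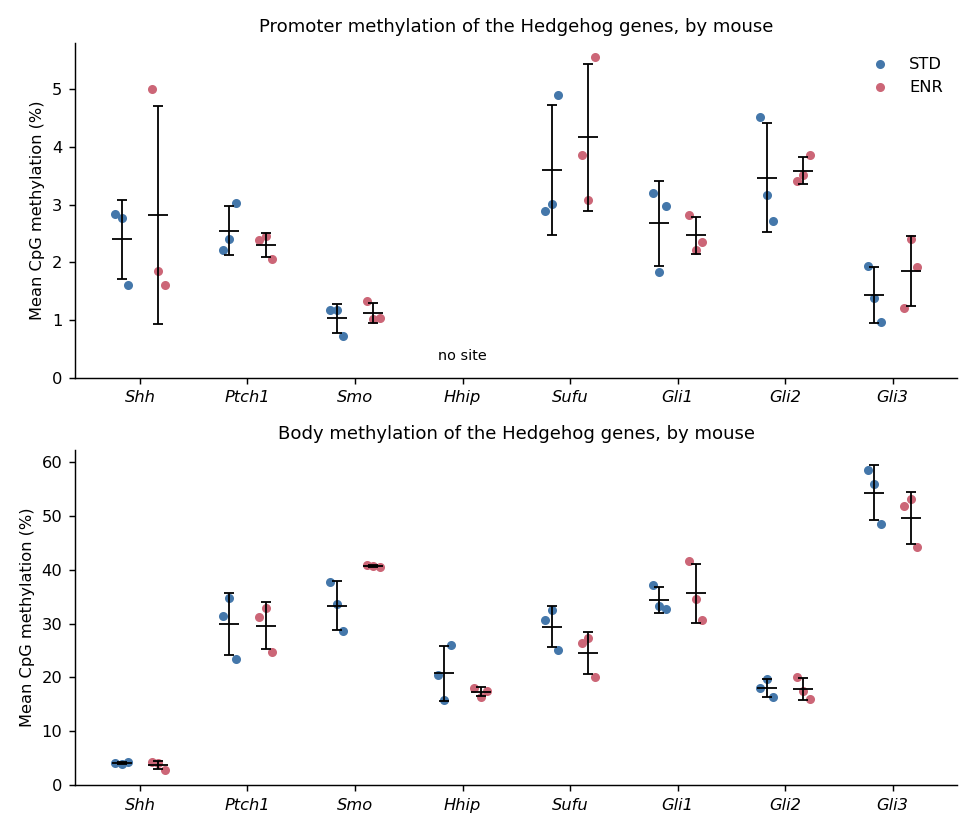
Mean CpG methylation (%) of promoters (top) and bodies (bottom) of the 8 genes in each of 3 STD and 3 ENR mice; points are mice, and black bars are the mean ± SD. All promoter values lie below 6%, whereas bodies run from under 5% in Shh to over 44% in Gli3.

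Shh, which encodes the ligand, was nearly free of methylation along its whole length. Its body mean was 4.07, 3.85 and 4.35% in the STD mice and 4.20, 4.11 and 2.86% in the ENR mice. ENR mouse 3 was the lowest, and the groups overlapped. Of its 229 sites, 207 were below 10% and none was above 80%. The 7 body tiles of 1 kb with at least 3 sites had means of 0.876 to 12.6%. All 7 were below 20%, compared with 25.3% of body tiles of all genes. Among 7592 protein-coding genes with at least 5 body sites, 430 had a body mean at or below that of Shh, and among the 241 with at least 100 such sites 14 did. A cluster of 96 sites around the first part of the gene lay at 1.51%, 27 intronic sites 4.07 kb from the start at 10.3%, and 106 sites around the 3′ end at 4.29%. Within the last of these, the 9 sites of the tile 9.46 kb from the start, in the untranslated part of an exon, had the highest tile mean, 12.6%. Of the body sites, 89 lay within 1 kb of a start of the overlapping transcripts 9530036O11Rik or Gm26894 and averaged 3.65%, while the other 127 averaged 4.09%.

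**Figure D2:**
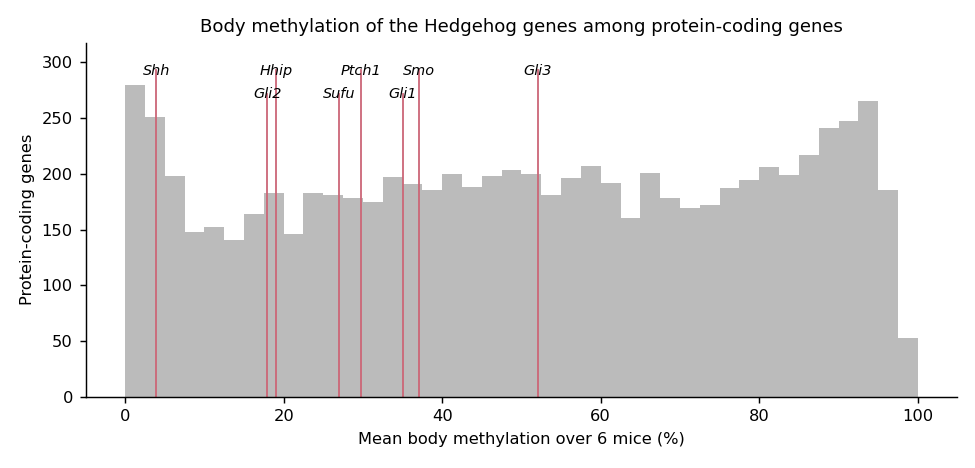
Number of protein-coding genes (y axis) by mean body methylation over the 6 mice (x axis, %, in bins of 2.5 points), with the 8 genes as vertical lines. Shh lies in the low tail at 3.91%, Gli3 near the median of 50.6%, and the other 6 genes between 17.9 and 37.0%.

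In the genes of the receptors and of Hhip, methylation was low near the start and higher further into the gene. In Ptch1, 24 intronic sites 5.50 kb from the gene start averaged 1.55%, and all of them lay within 1 kb of a start of the overlapping transcript A930032L01Rik. The other 23 body sites averaged 59.2%. The cluster of 5 sites over an exon edge 40.8 kb from the start, whose sequence is given above, read 100, 100 and 95% in STD and 93.8, 96.4 and 87.1% in ENR mice. In Smo, the 8 coding-exon sites 18.1 kb from the start averaged 24.4%, with single sites from 5.72 to 52.2%. Hhip had 8 sites within 3 kb of the start in 2 body tiles, at 3.99 and 7.45%, and 4 scattered sites further on. Both tiles were below 20%.

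The Gli1 body held a low stretch between higher ones. Sites 8.28 kb from the start averaged 77.3% (n = 5 sites) and those 11.1 kb from it 75.0% (n = 5 sites), but the 28 sites between them, at 9.44 kb, averaged 20.3% and ran from 0.781 to 57.4%. In single libraries this middle cluster read 20.9, 17.8 and 15% in STD and 26.3, 27.3 and 14.9% in ENR mice, below both flanking clusters in each of the 6. All 28 sites lay within 1 kb of a start of the transcript Gm47200, and the other 10 body sites averaged 76.2%. Gli1 encodes the activator most often used as a readout of the pathway.

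Gli2, the main activator, kept low methylation beyond its promoter. A run of 49 intronic sites centred 5.45 kb from the start averaged 3.10%, at 3.38, 3.78 and 1.55% in STD and 4.40, 3.02 and 2.49% in ENR mice. Of its 5 body tiles, 3 were below 20%, and the cluster of 9 sites 203 kb from the start lay at 68.3%. Gli3, the main repressor, had no body site below 10% and no tile below 20%. Its first body cluster, 15.6 kb from the start, was at 92.5% (3 sites), in contrast to 1.64% over the 101 promoter sites. In Sufu, 2 of 3 body tiles were below 20%, at 6.93 and 11.8%, and the third was at 39.8%. The body clusters of Gli2, Gli3 and Sufu were not within 1 kb of a start of another annotated gene.

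**Figure D3:**
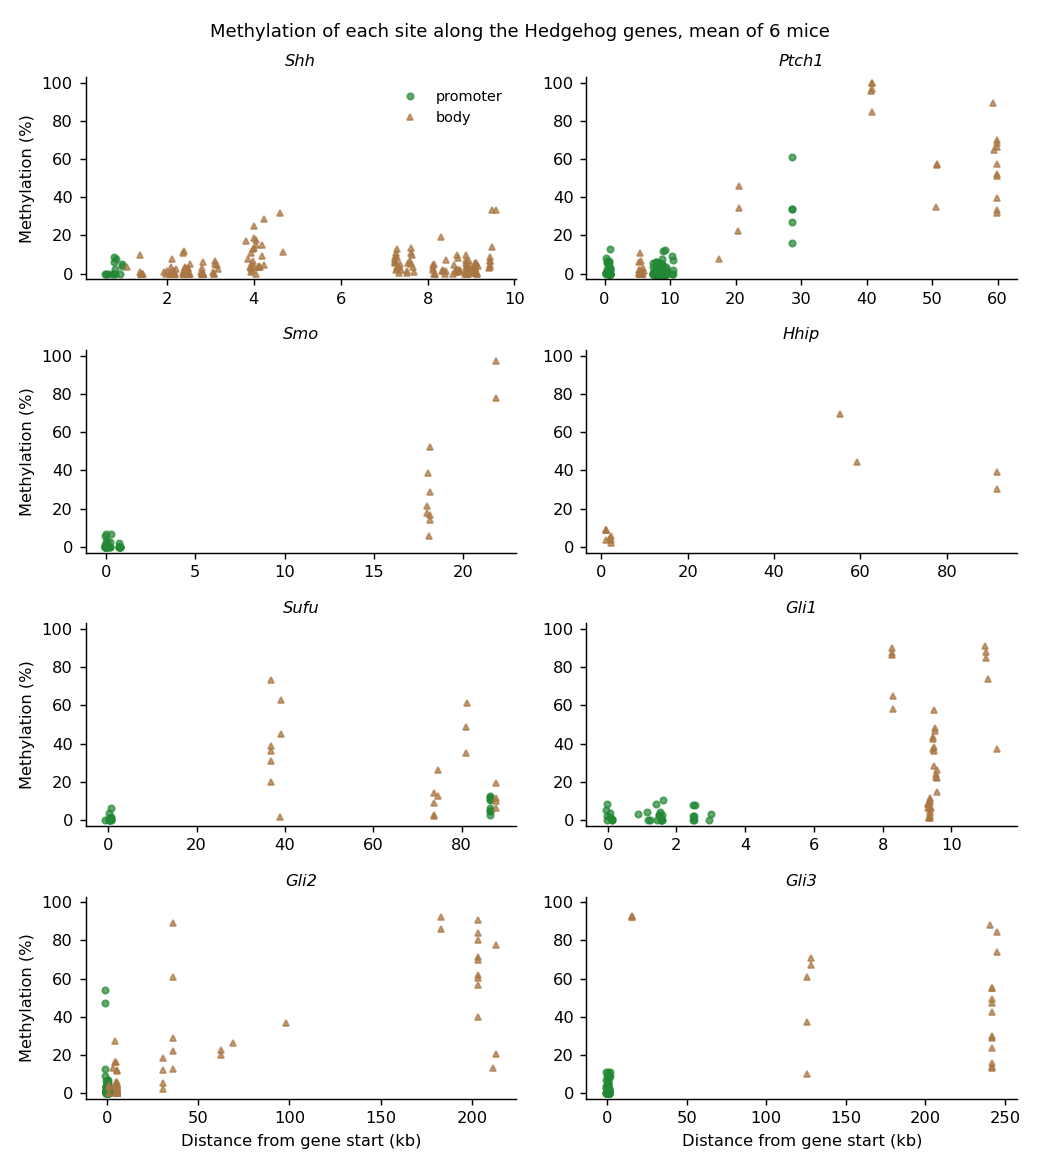
Methylation of each site (%, mean of 6 mice) against its distance from the gene start (kb) in the 8 genes, with promoter sites as circles and body sites as triangles; x axes differ between panels. Shh has no site above 40%, and Gli1 shows the low sites at 9.44 kb between higher ones.

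The comparison of STD with ENR mice addressed whether enriched housing changed methylation at these genes. No member passed limma at an adjusted p under 0.05 in its whole window (0 of 8), its promoter (0 of 7) or its body (0 of 8), nor did the body minus promoter difference (0 of 7). In each of these fits the share of all genes called was 0%. At an unadjusted p under 0.05 limma called 0 windows, 0 promoters, 0 bodies and 1 body minus promoter difference, beside 3.69, 4.48, 3.21 and 3.22% of all genes. No promoter separated the groups (0 of 7), beside 5.66% of all promoters that were lower and 3.82% that were higher in ENR without overlap. With 3 mice against 3 the exact permutation test could not go below p = 0.1. Promoter differences (ENR minus STD) lay between -0.244 points in Ptch1 and 0.568 in Sufu, with a median of 0.122, beside a median of -0.0515 over all gene promoters. Body differences lay between -4.87 points in Sufu and 7.40 in Smo, with a median of -0.317 beside -0.723 over all gene bodies, and 6 of 8 were lower in ENR.

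Smo was the member whose groups did not overlap. Its body read 37.8, 33.6 and 28.6% in STD and 40.9, 40.8 and 40.5% in ENR mice, a difference of 7.40 points (limma SE 3.65, unadjusted p = 0.0819, adjusted p = 1.00, exact permutation p = 0.1). All 3 ENR mice were above all 3 STD mice, which alone fixes the exact p at 0.1. The same order held for the whole window (7.88 to 10.6% in STD, 11.2 to 11.5% in ENR). Bodies that were higher in ENR without overlap made up 2.16% of all genes (lower 5.15%), and windows 2.98% (lower 5.36%), against 1 of 8 higher and 0 lower here in each. The body minus promoter difference of Smo was 7.30 points higher in ENR (limma SE 3.02, unadjusted p = 0.0488, adjusted p = 1.00), and without overlap 2.68% of genes were higher and 4.70% lower in that measure. The Smo body had only 10 sites, 8 of them in the coding-exon cluster. With the median over sites in place of the mean, the groups overlapped, with a difference of 9.46 points. That cluster read 23.8, 21 and 16.9% in STD and 29.1, 27.6 and 27.8% in ENR mice, with 6 of its 8 sites higher in ENR. The cluster was singled out after its values were seen. When each library was centred on its mean over all sites, it still did not overlap (-5.64 to -0.506 points in STD, 3.67 to 6.50 in ENR).

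The Smo promoter differed by 0.0971 points (limma SE 0.296). The Shh promoter read 2.83, 2.76 and 1.61% in STD and 5.01, 1.85 and 1.61% in ENR mice, with ENR mouse 1 alone above the others. The Ptch1 body read 31.4, 34.8 and 23.5% in STD and 31.3, 32.9 and 24.7% in ENR mice, and mouse 3 was the lowest in both groups. The Sufu body read 30.7, 32.5 and 25.1% in STD and 26.3, 27.3 and 20% in ENR mice, with overlap (difference -4.87 points, limma SE 3.31). The Gli3 body read 58.5, 55.9 and 48.6% in STD and 51.8, 53.1 and 44.2% in ENR mice (difference -4.64, limma SE 4.56). No label matches single STD to single ENR mice, so the pairs and the block used next follow the replicate number only. Within the 3 same-numbered pairs, the body difference (ENR minus STD) was -4.33, -5.15 and -5.13 points in Sufu. In Gli3 it was -6.71, -2.79 and -4.41 points. With the replicate number as a block, limma gave a standard error of 1.95 points for Sufu (unadjusted p = 0.0573, adjusted p = 0.936) and of 2.85 points for Gli3 (unadjusted p = 0.169, adjusted p = 0.936). The mean over all gene bodies was also lower in ENR in each of these pairs. It read 50.7, 50.3 and 46.8% in STD and 50.3, 49.7 and 44.3% in ENR mice. Astrocyte and neuronal marker promoters were lower in ENR in each pair as well, while oligodendrocyte and endothelial ones went both ways. The part of these values in the Sufu and Gli3 differences was not tested. The Smo body was higher in ENR in all 3 pairs, by 3.15, 7.14 and 11.9 points (blocked SE 2.97, unadjusted p = 0.0581, adjusted p = 0.936). The Hhip body read 20.5, 15.8 and 26.0% in STD and 18.1, 16.4 and 17.5% in ENR mice, a spread within STD wider than the difference of -3.41 points, which was -0.790 without STD mouse 3. Gli1 and Gli2 bodies differed by 1.17 (limma SE 3.93) and -0.202 points (limma SE 1.88).

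**Figure D4:**
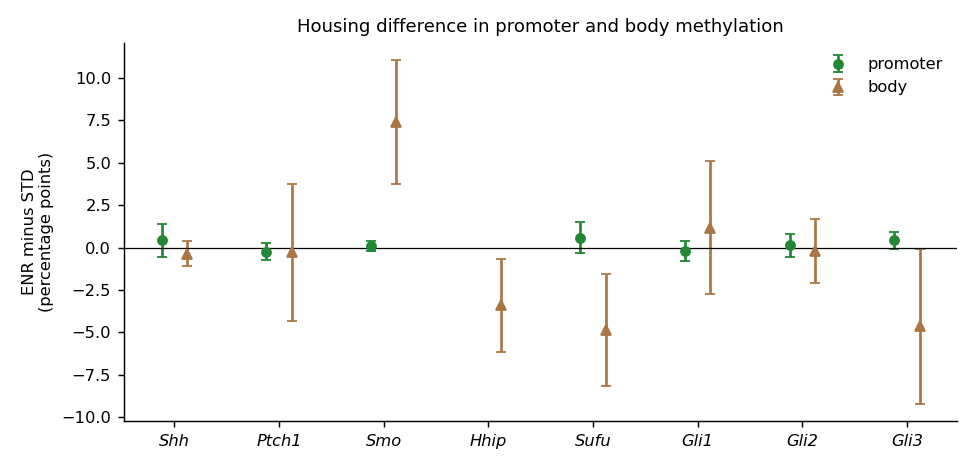
ENR minus STD difference in mean methylation (percentage points) of promoters (circles) and bodies (triangles) of the 8 genes, with bars of 1 limma standard error. Promoter differences lie within 0.568 points of 0, and the Smo body, at 7.40 points, is the one farthest from it.

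On a finer scale, 39 clusters had at least 3 member sites, and in 1 ENR was lower and in 1 higher without overlap, beside 5.32 and 3.46% of all clusters built in the same way over the table. The higher one was the Smo exon. The lower one was an intronic cluster of 11 Gli3 sites 242 kb from the start, singled out, like the Smo cluster, after its values were seen. It read 38.7, 36.1 and 40.4% in STD and 27.6, 31.6 and 29.9% in ENR mice. Of its 11 sites, 10 were lower in ENR, but they are neighbouring cytosines of 8 CpGs in the same mice and not independent. The difference was -8.68 points (exact permutation p = 0.1), but any cluster that separates 3 from 3 mice gives this p. Centred values did not overlap either (11.9 to 17.9 points in STD, 3.40 to 8.61 in ENR), in a cluster picked for its separation. No 1 kb tile was called among 51, nor among all tiles (0%), and 0 of the 51 had an unadjusted limma p under 0.05 beside 3.98% of all tiles. In 2 of the 51 ENR was lower and in 1 higher without overlap, beside 5.30 and 3.58% of all tiles. The tiles with the lowest limma p were, in the lower direction, the Ptch1 tile at 40.8 kb (98.3% in STD and 92.5% in ENR mice) and the Gli1 tile at 8.28 kb (84.8 and 69.9%). In the higher direction they were a Ptch1 intronic tile of 3 sites (0 and 2.74%) and a Gli2 intronic tile 30.8 kb from the start (5.91 and 13.2%).

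**Figure D5:**
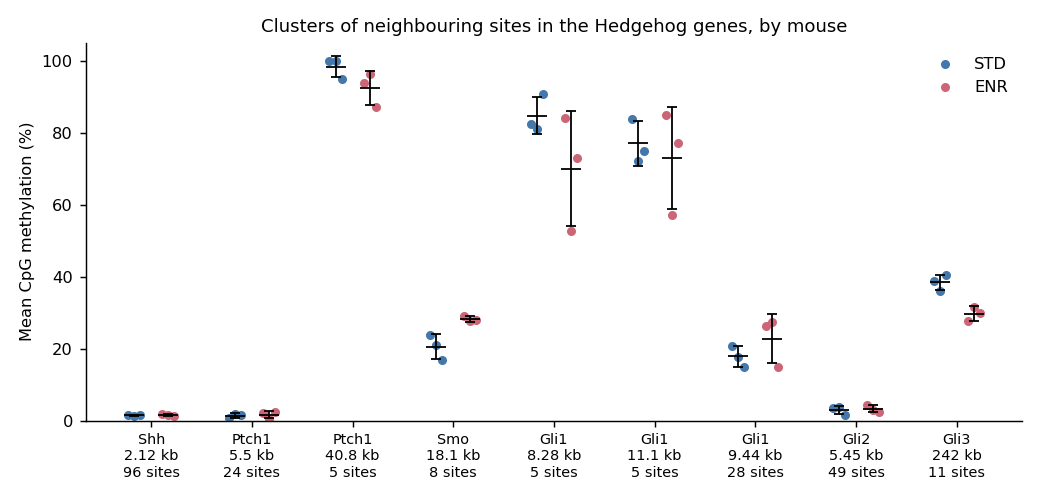
Mean methylation (%) of 9 clusters of neighbouring sites in each mouse, named by gene, distance from the gene start and number of sites; points are mice, and bars are the mean ± SD. The Smo and Gli3 clusters separate STD from ENR mice, and the 28 Gli1 sites at 9.44 kb lie below the flanking Gli1 clusters.

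Among the 578 member sites that varied, limma called 0, as it called 0% of all sites. The study, by a test on read numbers, did report differentially methylated CpGs between these groups, so the 0% belongs to the fit used here. An unadjusted limma p under 0.05 was found at 10 of the 578, beside 2.68% of all varying sites. ENR was lower without overlap at 15 and higher at 11 of the 578, beside 3.38 and 2.39% of all varying sites. Group means differed by more than 25 points at 11 member sites (6 lower and 5 higher in ENR), which is 1.28% of the members against 1.94% of all sites (1.23% lower and 0.706% higher). At 6 of these 11 the groups did not overlap, and 0.810% of all sites met both conditions. In the low Gli1 cluster printed above, neighbouring sites at 127332496 and 127332507 read 28.2, 27.5 and 20% against 89.4, 50.0 and 47.2%, and 29.7, 12.8 and 28.6% against 67.4, 36.4 and 47.2%, in STD and ENR mice. Of the 19 other sites within 100 bp of each, 13 moved the same way, and the mean difference over all 19 was 4.26 and 4.73 points. Each of these named Gli1 sites counts among the other's neighbours, and the 28 sites of the cluster are cytosines of 16 CpGs. In an intron of Gli2, the site at 118984672 read 0, 26.3 and 0% in STD and 44.4, 42.1 and 45.0% in ENR mice and had no measured neighbour within 100 bp. A second Gli2 site, at 118840232, read 32.8, 24.5 and 43.5% in STD and 15.4, 0 and 6.38% in ENR mice, while its 1 measured neighbour within 100 bp moved the other way, by 5.01 points. In Shh, the site at 28457670 in the untranslated part of an exon read 36.6, 71.8 and 37.7% in STD and 15.2, 14.9 and 24.4% in ENR mice. The Sufu site at 46433734 in an intron read 46.1, 50.0 and 53.8% in STD and 26.7, 39.1 and 0% in ENR mice. Of its 4 neighbours 3 moved the same way, with a mean over all 4 of -1.13 points. The adjusted p of all 6 was 0.852. The 30 bases around the first Gli2 site and the Sufu site are shown with only the CpG of that site in capitals, so that each can be located.

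Gli2 intron, chr1:118984658-118984687, plus strand: ggcagagtgtctgcCGggagacactgaagg

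Sufu intron, chr19:46433720-46433749, plus strand: aagggctccggaaaCGtgaaagcggtggca

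Of 36 other genes of the pathway, 36 had a measured window, 34 a promoter and 25 a body, and limma called 0 in each. At an unadjusted p under 0.05 it gave 2 of 36 windows, 1 of 34 promoters and 2 of 25 bodies, beside 3.69, 4.48 and 3.21% of all genes. Window differences had a median of -0.150 points beside -0.183 over all genes. The windows whose groups did not overlap were 1 lower and 2 higher, beside the 5.36 and 2.98% of all genes. Dhh, a second Hedgehog ligand, read 12.8, 15.4 and 14.1% in STD and 12.1, 12.1 and 9.05% in ENR mice. Gpr161, a ciliary receptor that restrains the pathway, read 75.8, 74.8 and 76.4% against 79.6, 78.2 and 77.4%. Spop, an adaptor for the degradation of GLI proteins, read 5.63, 5.66 and 5.30% against 6.73, 7.56 and 7.51%.

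When the 12 values of each of the 7 members with a measured promoter (promoter and body in 6 mice) were set against those of 6072 protein-coding genes, the closest pairs were Gli2 with Casz1 (root mean square distance 0.606 points), Shh with Gm28230 (0.696) and Gli3 with Csmd1 (0.910). Gm28230 had a promoter mean of 2.49% and a body mean of 4.19%, near the 2.61 and 3.91% of Shh, and Csmd1 had 1.70 and 52.4%, near the 1.64 and 52.0% of Gli3.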

How the data were processed

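RRBS libraries of 6 dentate gyri were analysed from a single table. The authors trimmed and aligned reads to mm10 and deposited the percent methylation per CpG cytosine; their processing notes name Trim Galore 0.4.0, cutadapt 1.8.1, Bismark 0.16.1 and methylKit 1.5.2. Per the study's methods, sites needed at least 10 reads. Read numbers were not used here, so the study's test on reads could not be run, and depth is unknown.

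Percentages were averaged per gene, promoter, body and 1 kb tile (at least 5 sites a gene, 3 a tile) and fitted with limma 3.58.1 (R 4.3.3, variance trend) over the whole table, with Benjamini-Hochberg adjustment; the test was checked on simulated data. The p-values measure only the spread between these 6 samples. Members, gene lists and rules were chosen with earlier results of these data known, and the clusters after the data. All 8 members are named. Sites named are those over 25 points apart without overlap, at most 2 a gene. Tiles named are the 2 with the lowest p in each direction, with at most 2 low body tiles a gene. Other pathway genes are named where windows did not overlap, and the 3 closest genes of like pattern. Deviations of same-numbered replicates correlated at 0.170, 0.140 and 0.383 over gene windows, each above 0.1, so a replicate block was fitted as an alternative; STD1 with ENR2 (0.168) and STD2 with ENR1 (0.146) correlated as highly, and replicate 3 alone stood apart; for gene bodies they were 0.119, 0.0661 and 0.244.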

Additional observations from a re-analysis of the deposited data

How the results depend on the processing

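Read depth is unknown beyond the study's minimum of 10 reads, and how far it limits single sites was not worked out. The replicate block changed no call, and under all alternatives 0 members were called. Of 23 member values, 2 (Smo window and body) did not overlap between groups, beside 8.54% of the values of all genes; it was 4 with libraries centred by compartment (all genes 7.74%), 5 with quantile normalization (9.47%), 0 with the median over sites (7.12%) and 2 to 6 with 1 mouse left out (5 without STD mouse 2, 6 without STD mouse 3), beside 15.8 to 20% of all genes in the same 2-against-3 comparisons. Of the sites, 11 lay over 25 points apart; it was 24 at a limit of 20 points, 0 at 40 points, 17 by group medians and 14 to 23 with 1 mouse left out (18 without STD mouse 1, 23 without STD mouse 2 or ENR mouse 3). Differences between ENR and STD changed sign as follows, and the cause was not tested. With centred libraries, the values were 0.630 (Gli2 window), 0.358 (Shh window), 0.00363 (Ptch1 window), 0.901 (Gli2 body), 0.345 (Shh body), 0.344 (Ptch1 body), 0.633 (Gli2 body minus promoter), 0.442 (Ptch1 body minus promoter). With the strands of a CpG averaged, the values were 0.0139 (Gli2 window), -0.282 (Gli1 window), -0.146 (Smo promoter), -0.539 (Gli1 body), -0.478 (Gli1 body minus promoter). With quantile normalization, the values were 0.649 (Gli2 window), 0.00479 (Shh window), 0.106 (Gli3 window), 0.223 (Ptch1 window), 0.160 (Gli1 promoter), 0.0512 (Ptch1 promoter), 0.604 (Gli2 body), 0.805 (Ptch1 body), 0.754 (Ptch1 body minus promoter). With only sites of 20 to 80%, the values were 1.56 (Ptch1 window), 2.65 (Ptch1 body). With medians over sites, the values were 1.77 (Ptch1 body), 1.77 (Ptch1 body minus promoter). In another 55 cases, over 27 differences, the sign was kept but the value moved by over 1.5 times. Of the larger ones, the Gli3 body went from -4.64 to -1.92 with promoters by the gene start only, the Hhip body from -3.41 to -1.28 with medians, the Sufu window from -2.22 to -0.896 with 5 kb upstream, and with only sites of 20 to 80% the Shh body from -0.364 to -10.6, the Sufu body from -4.87 to -8.39 and the Smo body from 7.40 to 11.5. Leaving out 1 mouse at a time moved 18 of 30 differences across 0, within the ranges -1.42 to 3.78 (Gli1 body minus promoter), -1.81 to 3.62 (Gli1 body), -0.628 to 0.0567 (Gli1 promoter), -1.16 to 1.89 (Gli1 window), -1.55 to 0.723 (Gli2 body minus promoter), -1.34 to 0.711 (Gli2 body), -0.257 to 0.650 (Gli2 promoter), -0.688 to 0.401 (Gli2 window), -1.19 to 0.102 (Gli3 window), -3.47 to 2.5 (Ptch1 body minus promoter), -3.47 to 2.20 (Ptch1 body), -0.796 to 0.405 (Ptch1 window), -1.46 to 0.0725 (Shh body minus promoter), -0.601 to 0.0680 (Shh body), -0.674 to 1.02 (Shh promoter), -0.605 to 0.122 (Shh window), -0.0512 to 0.173 (Smo promoter), -0.132 to 1.22 (Sufu promoter). The other 12 differences kept their sign with any mouse left out but ranged over -7.70 to -2.26 (Gli3 body minus promoter), -7.51 to -1.87 (Gli3 body), 0.141 to 0.739 (Gli3 promoter), -5.88 to -0.790 (Hhip body), -5.88 to -0.790 (Hhip window), -0.414 to -0.00419 (Ptch1 promoter), 5.09 to 9.45 (Smo body minus promoter), 5.04 to 9.62 (Smo body), 1.25 to 2.59 (Smo window), -8.23 to -2.46 (Sufu body minus promoter), -7.01 to -2.59 (Sufu body), -2.998 to -1.39 (Sufu window). The Hhip and Smo window values nearest 0 came without STD mouse 3, and those of the Gli3 and Sufu bodies without ENR mouse 3. Members with the body above the promoter in every mouse numbered 5 to 7 under the 12 alternatives counted, against 6, and 7, Shh included, without ENR mouse 1 and also with the strands of a CpG averaged.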
